A study of Homo sapiens with 12 samples.

Results

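The RNA of the SR and hnRNP splicing factors was followed in K562, a BCR-ABL-positive line from a human chronic myeloid leukemia, and in K562/IM, a line made from K562 by stepwise exposure to imatinib (IM) until it resisted the drug. The members were all genes of the count table whose symbol is SRSF followed by a number or begins with HNRNP, which gave 37 of 19447 symbols, 12 SRSF and 25 HNRNP genes. Of these, 32 passed the filter on low counts and were tested in every comparison, 11 SRSF and 21 HNRNP genes, and the other 5 held too few counts to be tested. The 4 groups of 3 libraries were K562 (labelled as control), K562+L (K562 with lycorine, an alkaloid of the Amaryllidaceae plants), K562/IM (labelled as control) and K562/IM+L (K562/IM labelled as given lycorine). All 4 groups share the K562 origin, K562/IM is 1 derived line that the study kept in medium with imatinib, and the sample labels give neither the dose of lycorine nor the time of exposure. Nothing in the labels says that the 3 samples of a group came from separate cultures, so that the p-values measure the spread between these samples, which may be technical.

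SR proteins carry RNA-recognition motifs and a tail rich in arginine and serine (the RS domain). They bind exonic enhancers and help the U1 particle and U2AF to define an exon. Heterogeneous nuclear ribonucleoproteins (hnRNPs) coat nascent transcripts. Many of them, such as hnRNP A1, bind silencers and oppose SR proteins at the same exon, so that the balance between both families is a textbook control of alternative splicing. The SR proteins are phosphorylated by the SRPK and CLK kinases and imported into the nucleus by transportin 3, and many SR and hnRNP genes hold poison exons whose inclusion sends their own transcript to nonsense-mediated decay. The counts were made per gene, so that isoforms with and without such an exon were not told apart here.

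The libraries held 75093844 to 107344598 counts, and levels are given in CPM, the usual unit of counts relative to library size, here with TMM scaling. In bulk RNA, fewer cells of a type and less RNA per cell cannot be told apart. All 8 K562 lineage markers used (GATA1, TAL1, KLF1, LMO2, NFE2, HBZ, HBE1 and HBG1) were detected in every group, and their summed level was 1638 to 4136 CPM in K562, K562+L and K562/IM and 17264 to 25540.5 CPM in K562/IM+L as labelled. Most of the latter sum was the globins HBZ and HBG1, with means of 11150 and 8534 CPM. GATA1 had a mean of 250 CPM there and of 196 to 230 CPM in the other groups. The 8 markers of other cells summed to 161 to 246 CPM over all libraries, nearly all of it LYZ and EPCAM, with MS4A1 at 0 counts in every library and ALB at 0 outside the labelled libraries. These K562/IM+L libraries also stood apart over all genes, with a median Spearman rho of 0.909 to K562/IM libraries and 0.941 to K562 libraries, where K562 and K562/IM had 0.950, and their 10 most counted genes took 7.95 to 9.61% of the counts against 3.79 to 5.24% elsewhere. For this reason they are called the labelled libraries throughout. The main fits of K562+L against K562 and of K562/IM against K562 do not use them, but the CPM levels were scaled over all 12 libraries. In the other comparisons what sets these libraries apart and the lycorine they are labelled with cannot be told apart.

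Per kilobase of transcript, the scale on which genes can be set side by side, HNRNPA1 was the most abundant member in every group. It held 1871 ± 83.2 CPM per kilobase in K562 (SD, n = 3), followed by HNRNPC with 725 ± 32.5, HNRNPA2B1 with 699 ± 22.3 and HNRNPA3 with 630.2 ± 19.6. HNRNPC and HNRNPA2B1 differed by less than their summed SDs. SRSF1 was the most abundant SR transcript in K562, with 467 ± 31.2 CPM per kilobase, followed by SRSF2 with 332 ± 7.63, SRSF3 with 241 ± 12.9 and SRSF5 with 198 ± 4.37. The lowest of the 32 tested members were SRSF8 with 26.7 ± 0.535 and HNRNPA0 with 23.7 ± 2.41. This order depends on the length used, the median of the annotated coding transcripts and not of those expressed, and the SDs do not carry that choice. Before division by length, SRSF1, SRSF2 and SRSF3 lay close together in K562, with means of 660, 640 and 613 CPM. HNRNPA2B1 with 2458 CPM there stood above HNRNPC with 1159 CPM. The order changed in the labelled libraries, where SRSF5 with 252 ± 16.7 CPM per kilobase stood above SRSF1 with 165 ± 5.0 and SRSF2 with 117 ± 6.28, and where HNRNPA2B1 had dropped to 259 ± 11.2. Of the untested members, SRSF12 had 4 counts in 1 labelled library and 0 in the other 11 libraries, and the HNRNPC-like genes HNRNPCL1, HNRNPCL2, HNRNPCL3 and HNRNPCL4 had 0 to 5 counts in any library.

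**Figure D1:**
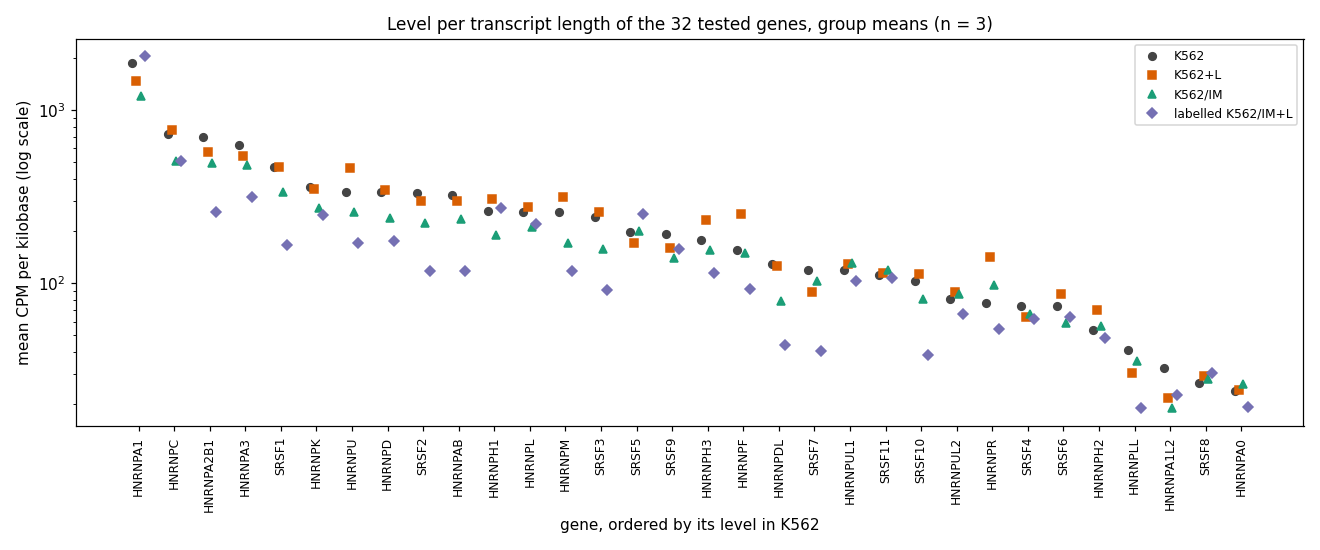
Mean CPM per kilobase of transcript (log axis) of the 32 tested members in each group of 3 libraries, ordered by the level in K562. HNRNPA1 lies highest in every group, and the diamonds of the labelled libraries lie lowest for most members, with SRSF5 and HNRNPA1 among those where they lie highest.

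Lycorine in K562 moved members in both directions, most of them by little. HNRNPF, which binds runs of G, rose from 416 ± 17.2 CPM to 667 ± 4.42 CPM (SD, n = 3), HNRNPU, a large chromatin-binding hnRNP, from 1422 ± 50.6 CPM to 1958 ± 46.4 CPM, and HNRNPR from 204 ± 20.8 CPM to 378 ± 88.9 CPM. Lower were HNRNPA1, the abundant silencer-binding protein, from 3163 ± 141 CPM to 2476 ± 101 CPM, its partner HNRNPA2B1, from 2458 ± 78.6 CPM to 2003 ± 129.97 CPM, and SRSF7, an SR protein with a role in RNA export, from 294 ± 40.0 CPM to 217 ± 5.88 CPM. In the comparison of K562+L with K562, 6 of the 32 members were higher at an adjusted p under 0.05 (edgeR's quasi-likelihood test over all genes), 18.8% against 18.2% of the 12927 genes tested, and 7 were lower, 21.9% against 19.0%. These shares lie near the background. With an absolute log2 fold change over 1 as well, 0 members passed in either direction, with edgeR at an adjusted or an unadjusted p under 0.05 and with DESeq2, against 2.38% higher and 4.01% lower of all genes. All 6 higher members were HNRNP genes, 28.6% of the 21 tested against 18.2% of all genes. Of the 11 SRSF genes 0 were higher (1 at an unadjusted p under 0.05, 0 with DESeq2). Lower were 2 of them, SRSF7 and SRSF9, 18.2% against 19.0% of all genes. The families are small, and the difference between them was not tested. The median log2 fold change of the members was 0.036, and that of all genes -0.00012. The counts rested on single libraries: 3 members were higher and 4 lower without K562 replicate 2, and 2 were lower without K562+L replicate 1. The summed lineage markers also moved, with 2726 to 4136 CPM in K562 and 1929 to 2264 CPM in K562+L, where 6 of the 8 means were lower and those of TAL1 and KLF1 higher, and their part in the result was not tested.

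K562/IM, the resistant line, held less RNA of most members than K562, and no member passed as higher. HNRNPA1 fell from 3163 ± 141 CPM to 2023 ± 24.6 CPM (SD, n = 3), SRSF3, the smallest SR protein, from 613 ± 32.9 CPM to 399.6 ± 14.3 CPM, HNRNPDL from 401 ± 26.1 CPM to 245 ± 6.41 CPM and HNRNPM from 641 ± 41.1 CPM to 423 ± 12.3 CPM. Lower at an adjusted p under 0.05 with edgeR were 19 of the 32 members, 6 SRSF and 13 HNRNP genes, 59.4% against 27.1% of the 13406 genes tested. Higher were 0 members (0 at an unadjusted p under 0.05, 0 with DESeq2), against 30.1% of all genes. The changes were small, and 0 members passed an absolute log2 fold change over 1 in either direction with edgeR, with DESeq2 or at an unadjusted p, against 13.9% of all genes higher and 5.29% lower. The median log2 fold change was -0.36 over the members and 0.042 over all genes. Without K562/IM replicate 2, 1 member, HNRNPR, passed as higher, and with upper-quartile factors 1 did, HNRNPUL1. Both are named with their values known. The summed lineage markers were lower in K562/IM as well (1638 to 1784 CPM against 2726 to 4136 CPM), although 2 of the 8 had a higher mean there, HBE1 (544 CPM against 97.6 CPM) and NFE2 (139.7 CPM against 129 CPM), and their part in the result was not tested.

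Against K562/IM, the labelled libraries held less RNA of the SR proteins SRSF1, SRSF2, SRSF3, SRSF7 and SRSF10 and of most hnRNPs, but more HNRNPA1. SRSF7 stood at 253 ± 6.37 CPM in K562/IM and 99.4 ± 7.50 CPM in the labelled libraries (SD, n = 3), SRSF1 at 473 ± 8.72 CPM and 234 ± 7.07 CPM, and HNRNPA2B1 at 1733 ± 33.7 CPM and 911 ± 39.4 CPM. HNRNPA1 rose from 2023 ± 24.6 CPM to 3443 ± 189.8 CPM, HNRNPH1 from 416 ± 25.7 CPM to 589 ± 5.28 CPM and SRSF5 from 282 ± 8.18 CPM to 355 ± 23.6 CPM. With edgeR at an adjusted p under 0.05, 20 of the 32 members were lower, 5 SRSF and 15 HNRNP genes, 62.5% against 33.6% of the 13727 genes tested, and 3 were higher, 9.38% against 33.2%. SRSF7 and SRSF10 also passed a log2 fold change under -1, so that 2 of 32 stood beside 13.8% of all genes, and 0 members passed in the other direction (0 with DESeq2 or at an unadjusted p), beside 14.7%. The median was -0.41 over the members and -0.0069 over all genes. Without replicate 3 of the labelled libraries the higher members were 6 in place of 3. The K562 lineage markers, with a sum of 1638 to 1784 CPM in K562/IM and 17264 to 25540.5 CPM in the labelled libraries, moved with this comparison, all 8 means being higher, and their part in it was not tested.

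Set against K562, whose libraries also serve in the first 2 comparisons, the labelled libraries were lower in most members, and the folds were the widest of the 4 comparisons. HNRNPDL stood at 401 ± 26.1 CPM in K562 and 135 ± 9.03 CPM in the labelled libraries (SD, n = 3), SRSF2 at 639.6 ± 14.7 CPM and 226 ± 12.1 CPM, SRSF1 at 660.4 ± 44.1 CPM and 234 ± 7.07 CPM and HNRNPAB at 538 ± 30.4 CPM and 197 ± 15.1 CPM. HNRNPA1 stood at 3163 ± 141 CPM and 3443 ± 189.8 CPM, and did not pass. With edgeR at an adjusted p under 0.05, 21 of 32 members were lower, 6 SRSF and 15 HNRNP genes, 65.6% against 27.8% of the 13307 genes tested. Higher was 1 member, SRSF5, 3.13% against 28.2%, and 0 of the 21 HNRNP genes (0 at an unadjusted p, 0 with DESeq2). A log2 fold change under -1 was passed by 12 members, 5 SRSF and 7 HNRNP genes, against 8.91% of all genes, and one over 1 by 0 members (0 with DESeq2 or at an unadjusted p) against 14.9%. The median was -0.56 over the members and 0.020 over all genes. With upper-quartile factors, which shifted the median of all genes by 0.15, 3 members were higher and 17 lower, and over all genes 4564 were higher and 2883 lower in place of 3753 and 3693. Without K562 replicate 2, labelled replicate 1 or labelled replicate 2 no member was higher, since SRSF5 was lost. The summed lineage markers, 2726 to 4136 CPM in K562 and 17264 to 25540.5 CPM in the labelled libraries, moved here too, again with all 8 means higher, and their part was not tested.

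**Figure D2:**
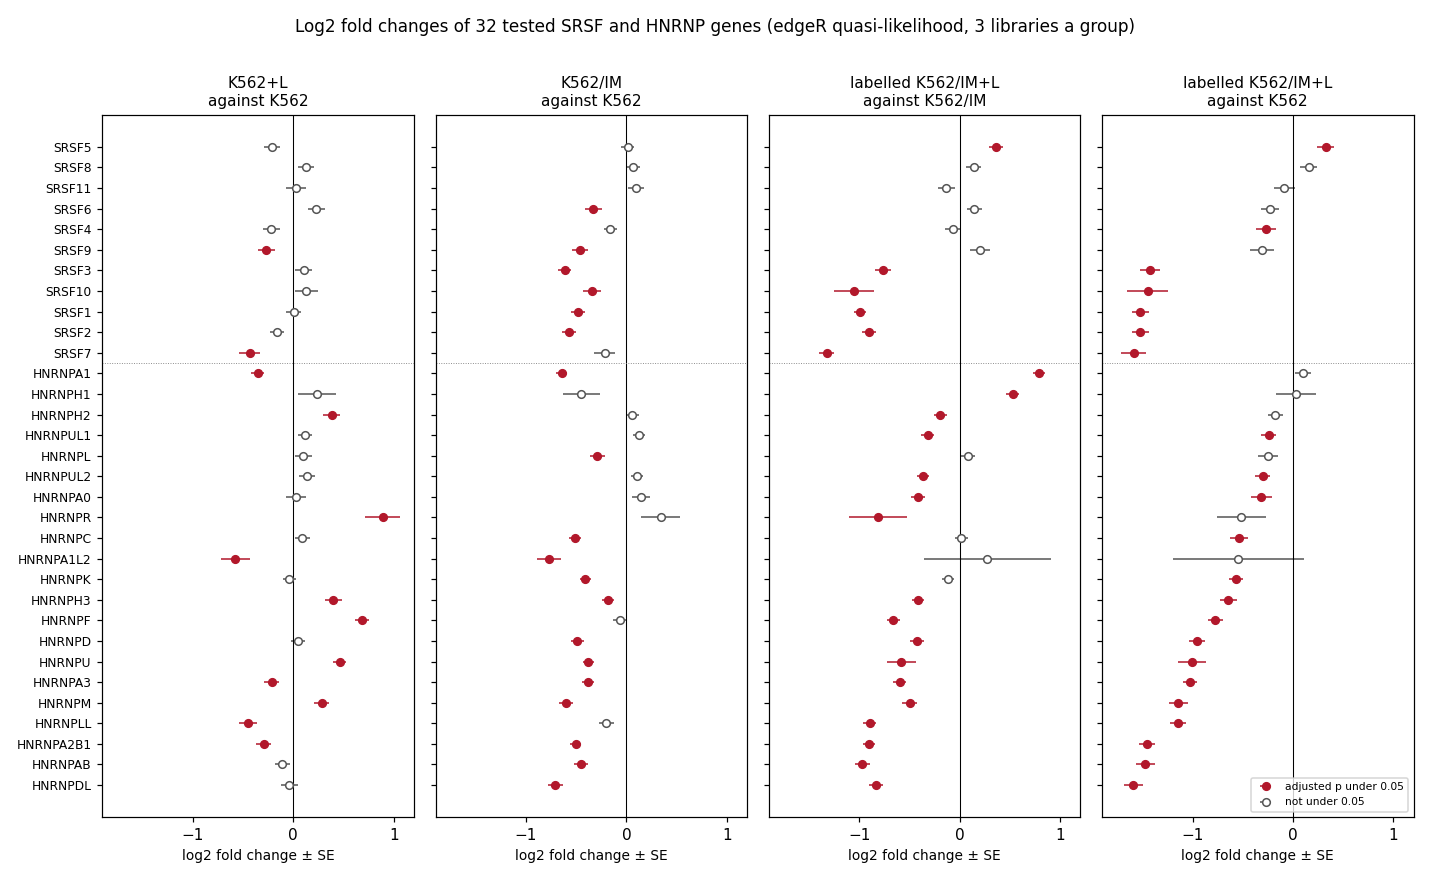
Log2 fold change with its standard error of the 32 tested members in the 4 comparisons (3 libraries a group), SRSF genes above and HNRNP genes below the dotted line, filled where edgeR's adjusted p was under 0.05. In K562+L the points lie on both sides of 0, in K562/IM the filled points all lie to the left, and in the labelled libraries SRSF7, SRSF10, SRSF1, SRSF2 and SRSF3 lie far left while SRSF5 and HNRNPA1 do not.

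SRSF1, the first SR protein described (SF2/ASF), promotes exon inclusion and can act as an oncogene. It lies on chromosome 17, 58003360 to 58007346, minus strand (GENCODE 29, GRCh38, as all positions of genes here). SRSF1 stood at 698, 671 and 612 CPM in the K562 libraries, 648, 652 and 687 in K562+L, 469, 483 and 467 in K562/IM and 226, 236 and 239.9 in the labelled libraries. The labelled libraries were lowest and K562/IM intermediate, without overlap, while K562 and K562+L overlapped. SRSF1 had log2 fold changes of 0.0037 ± 0.08 (edgeR adjusted p = 0.975) in K562+L against K562, -0.48 ± 0.07 (edgeR adjusted p = 0.000772) in K562/IM against K562, -0.99 ± 0.06 (edgeR adjusted p = 9.48e-06) in the labelled libraries against K562/IM and -1.52 ± 0.09 (edgeR adjusted p = 1.72e-05) in the labelled libraries against K562. Of the 75-base stretches in its transcripts, 52.2% also occur in AC015813.2, an annotated gene on the same strand that the count table does not list. SRSF2 (SC35; chromosome 17, 76734115 to 76737374, minus strand), a nuclear SR protein that is recurrently mutated in myeloid neoplasms, had the same order of groups. SRSF2 stood at 624, 653 and 643 CPM in the K562 libraries, 566, 591 and 558 in K562+L, 440.4, 447 and 403 in K562/IM and 235, 232 and 212 in the labelled libraries. No library of one group reached into another, and K562+L lay slightly below K562. SRSF2 had log2 fold changes of -0.16 ± 0.07 (edgeR adjusted p = 0.0935) in K562+L against K562, -0.57 ± 0.07 (edgeR adjusted p = 0.000268) in K562/IM against K562, -0.90 ± 0.07 (edgeR adjusted p = 3.07e-05) in the labelled libraries against K562/IM and -1.52 ± 0.08 (edgeR adjusted p = 1.64e-05) in the labelled libraries against K562. The change in K562+L passed only with upper-quartile factors (-0.21, edgeR adjusted p = 0.0464).

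SRSF3 (SRp20; chromosome 6, 36594353 to 36605600, plus strand) and SRSF7 (9G8; chromosome 2, 38743599 to 38751494, minus strand) are both small SR proteins that serve as adaptors for the export of mRNA. SRSF3 stood at 575, 626 and 636 CPM in the K562 libraries, 619, 707 and 648 in K562+L, 398, 415 and 386 in K562/IM and 250.1, 238 and 209 in the labelled libraries. K562 and K562+L overlapped, and both of the other groups lay lower, the labelled libraries lowest. SRSF3 had log2 fold changes of 0.10 ± 0.08 (edgeR adjusted p = 0.351) in K562+L against K562, -0.62 ± 0.07 (edgeR adjusted p = 0.000211) in K562/IM against K562, -0.76 ± 0.08 (edgeR adjusted p = 0.000126) in the labelled libraries against K562/IM and -1.42 ± 0.10 (edgeR adjusted p = 4.19e-05) in the labelled libraries against K562. SRSF7 stood at 254, 293 and 334 CPM in the K562 libraries, 211, 219 and 222 in K562+L, 259.6, 251 and 247 in K562/IM and 108, 94.0 and 96.2 in the labelled libraries. Here K562+L lay below all K562 libraries, K562/IM overlapped with K562, and the labelled libraries lay far below all others. SRSF7 had log2 fold changes of -0.43 ± 0.11 (edgeR adjusted p = 0.0160) in K562+L against K562, -0.22 (not called) in K562/IM against K562, -1.32 ± 0.08 (edgeR adjusted p = 6.45e-06) in the labelled libraries against K562/IM and -1.59 ± 0.12 (edgeR adjusted p = 5.97e-05) in the labelled libraries against K562. The call in K562+L was lost without K562 replicate 2 (-0.44, edgeR adjusted p = 0.0580) and without K562+L replicate 1 (-0.41, edgeR adjusted p = 0.0644).

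SRSF10 (SRp38; chromosome 1, 23964804 to 23980927, minus strand) differs from the other SR proteins in that it represses splicing when it is dephosphorylated, as in heat shock and mitosis. SRSF10 stood at 167, 184 and 151 CPM in the K562 libraries, 199, 190.2 and 162 in K562+L, 129.7, 135 and 132 in K562/IM and 56.0, 47.5 and 84.1 in the labelled libraries. Replicate 3 of the labelled libraries was the highest of its group but stayed below every other library. SRSF10 had log2 fold changes of 0.13 (not called) in K562+L against K562, -0.34 (called) in K562/IM against K562, -1.05 ± 0.20 (edgeR adjusted p = 0.00230) in the labelled libraries against K562/IM and -1.45 (called) in the labelled libraries against K562. Its call in K562/IM against K562 was lost with all 12 libraries in 1 fit. SRSF5 (SRp40; chromosome 14, 69726900 to 69772005, plus strand) was the one SR gene whose level in the labelled libraries passed as higher than in K562. SRSF5 stood at 279, 274 and 286 CPM in the K562 libraries, 227, 249.5 and 248 in K562+L, 277, 291 and 277 in K562/IM and 362, 375 and 329 in the labelled libraries. All 3 labelled libraries stood above the other 9, and K562+L stood below K562 and K562/IM. SRSF5 had log2 fold changes of -0.21 (not called) in K562+L against K562, 0.01 (not called) in K562/IM against K562, 0.36 ± 0.07 (edgeR adjusted p = 0.00276) in the labelled libraries against K562/IM and 0.33 ± 0.09 (edgeR adjusted p = 0.0159) in the labelled libraries against K562. Against K562 the call was lost without K562 replicate 2 (0.30, edgeR adjusted p = 0.0786), without labelled replicate 1 (0.30, edgeR adjusted p = 0.0664) and without labelled replicate 2 (0.27, edgeR adjusted p = 0.0617).

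The other 5 tested SR genes had log2 fold changes of -0.46 to 0.23 over the 4 comparisons. SRSF4 (SRp75), with 177 ± 5.94 CPM in K562, 152 ± 8.86 in K562+L, 158 ± 5.41 in K562/IM and 149 ± 13.1 in the labelled libraries (SD, n = 3), was called lower in the labelled libraries against K562 only. This call (edgeR adjusted p = 0.0495) was lost in most alternative fits, among them whichever K562 library was left out. SRSF6 (SRp55) had 318 ± 25.2 CPM in K562, 374 ± 21.8 in K562+L, 254 ± 17.4 in K562/IM and 276 ± 6.05 in the labelled libraries and was called lower in K562/IM. SRSF9 (SRp30c) had 231 ± 14.7 CPM in K562, 192 ± 13.1 in K562+L, 168 ± 10.6 in K562/IM and 189.8 ± 22.5 in the labelled libraries and was called lower in K562+L and in K562/IM. Its call in K562+L (edgeR adjusted p = 0.0462) was lost whichever K562+L library was left out. SRSF11 (SRp54) had 339.5 ± 31.2 CPM in K562, 346 ± 32.6 in K562+L, 362 ± 6.62 in K562/IM and 325 ± 29.5 in the labelled libraries, and SRSF8, a relative of SRSF2, had 107 ± 2.15 CPM in K562, 117 ± 3.29 in K562+L, 112 ± 5.54 in K562/IM and 122 ± 7.91 in the labelled libraries. Neither was called in any of the 4 comparisons. The coding sequences of SRSF2 (663 bases) and SRSF8 (846 bases) agree at 67.6% of alignment positions, where 84 mismatches and 191 gap bases count as disagreement.

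**Figure D3:**
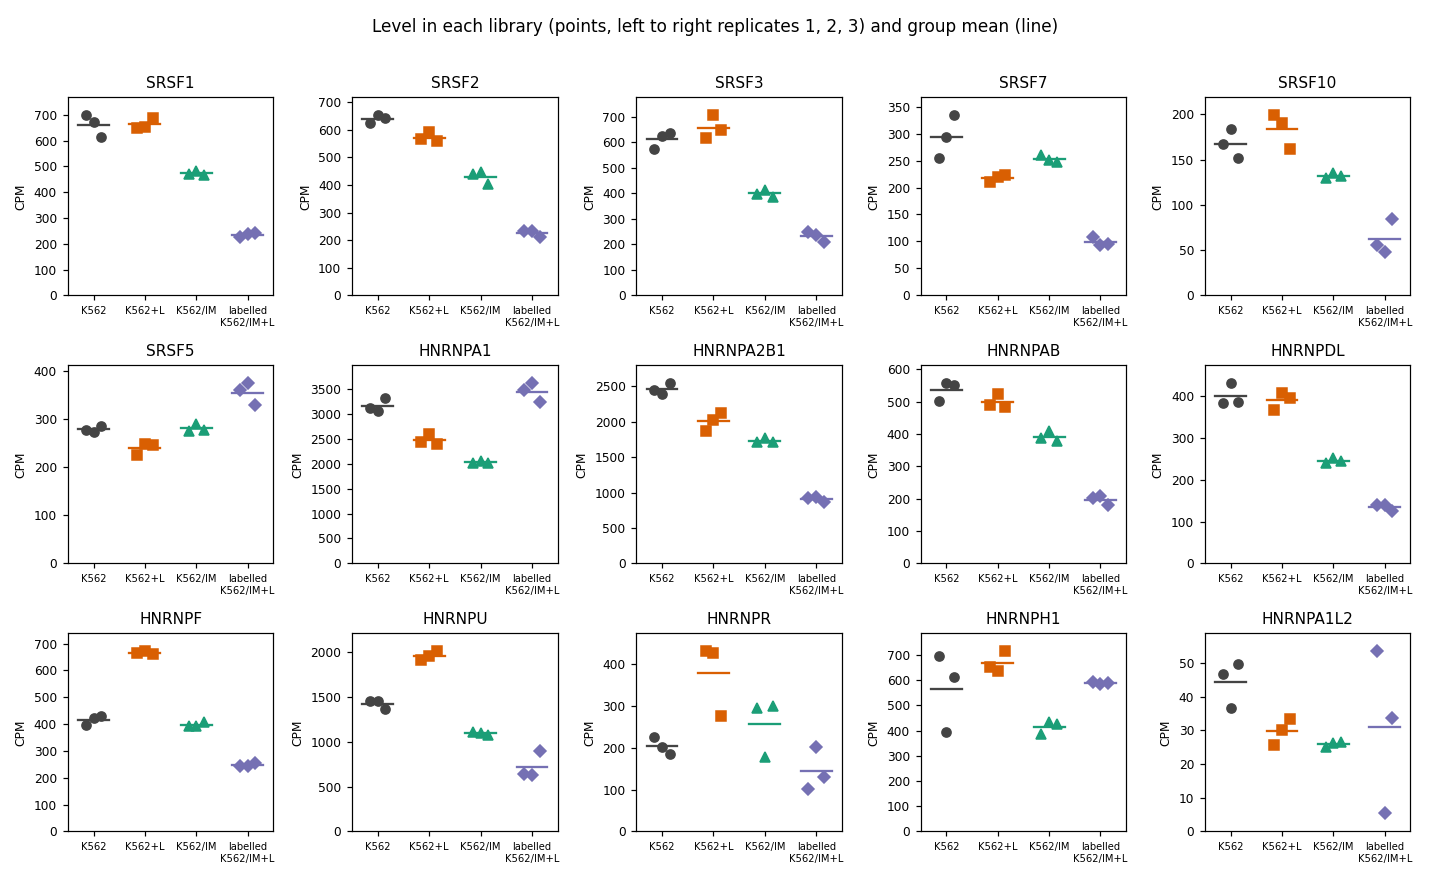
CPM of 15 members in each of the 12 libraries (points, replicates 1 to 3 from left to right) with the group mean (line). SRSF1, SRSF2, SRSF3 and HNRNPDL step down from K562 over K562/IM to the labelled libraries, SRSF5 and HNRNPA1 are highest there, HNRNPF is highest in K562+L, and HNRNPA1L2 and HNRNPR scatter between replicates.

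Of the hnRNP A/B proteins, which bind UAG-type silencers through paired RNA-recognition motifs, HNRNPA1 (chromosome 12, 54280193 to 54287088, plus strand) was the most abundant. HNRNPA1 stood at 3121, 3049 and 3319.9 CPM in the K562 libraries, 2438, 2590.4 and 2399.9 in K562+L, 2013, 2052 and 2006 in K562/IM and 3483, 3609.8 and 3237 in the labelled libraries. K562/IM lay lowest and K562+L next, both below K562, and the labelled libraries overlapped with K562. HNRNPA1 had log2 fold changes of -0.35 ± 0.07 (edgeR adjusted p = 0.00575) in K562+L against K562, -0.64 ± 0.06 (edgeR adjusted p = 6.70e-05) in K562/IM against K562, 0.79 ± 0.06 (edgeR adjusted p = 3.37e-05) in the labelled libraries against K562/IM and 0.10 ± 0.08 (edgeR adjusted p = 0.340) in the labelled libraries against K562. With upper-quartile factors the last of these passed (0.25, edgeR adjusted p = 0.0361). HNRNPA2B1 (chromosome 7, 26173057 to 26201529, minus strand), which encodes the A2 and B1 isoforms, was lower in the other groups than in K562. HNRNPA2B1 stood at 2443, 2387 and 2542 CPM in the K562 libraries, 1865, 2023 and 2122 in K562+L, 1714, 1772 and 1712 in K562/IM and 926, 939.9 and 866 in the labelled libraries. No 2 groups overlapped, and the labelled libraries lay far below the rest. HNRNPA2B1 had log2 fold changes of -0.30 ± 0.07 (edgeR adjusted p = 0.0150) in K562+L against K562, -0.50 (called) in K562/IM against K562, -0.91 ± 0.06 (edgeR adjusted p = 1.43e-05) in the labelled libraries against K562/IM and -1.45 (called) in the labelled libraries against K562. The call in K562+L was lost without K562+L replicate 1 (-0.25, edgeR adjusted p = 0.0511).

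HNRNPAB (chromosome 5, 178204507 to 178211163, plus strand), also known as CArG-box binding factor A, fell in both groups of K562/IM as labelled. HNRNPAB stood at 502, 557 and 553 CPM in the K562 libraries, 491, 523 and 484 in K562+L, 388, 409 and 378 in K562/IM and 202, 209 and 180.3 in the labelled libraries. K562 and K562+L overlapped, K562/IM lay below them and the labelled libraries lowest. HNRNPAB had log2 fold changes of -0.11 (not called) in K562+L against K562, -0.46 (called) in K562/IM against K562, -0.97 ± 0.08 (edgeR adjusted p = 2.76e-05) in the labelled libraries against K562/IM and -1.47 ± 0.10 (edgeR adjusted p = 3.25e-05) in the labelled libraries against K562. HNRNPA3 had 1303 ± 40.6 CPM in K562, 1123 ± 68.6 in K562+L, 1001 ± 41.9 in K562/IM and 651 ± 5.47 in the labelled libraries (SD, n = 3) and was called lower in all 4 comparisons. HNRNPA0, which binds AU-rich elements and is a target of the kinase MK2, had 207 ± 21.0 CPM in K562, 211 ± 10.6 in K562+L, 229 ± 12.8 in K562/IM and 169 ± 9.21 in the labelled libraries and was called lower in the labelled libraries against either control. Its call against K562 was lost whichever labelled library was left out. The call of HNRNPA3 in K562+L (log2 fold change -0.21, edgeR adjusted p = 0.0495) was lost in 11 of 14 alternative fits.

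HNRNPA1L2 (chromosome 13, 52642425 to 52643796, plus strand) is a nearly identical retrocopy of HNRNPA1. The coding sequences (GENCODE 29) are both 960 bases long and agree in 98.4% of bases, with 15 mismatches. Of all 75-base stretches of HNRNPA1L2 transcripts, 35.0% occur also in HNRNPA1, and 22.6% of those of HNRNPA1 occur in other genes, pseudogenes included, so that reads can be split between them and the counts of HNRNPA1L2 are uncertain. HNRNPA1L2 stood at 46.8, 36.8 and 49.6 CPM in the K562 libraries, 25.6, 30.1 and 33.5 in K562+L, 25.1, 26.3 and 26.7 in K562/IM and 53.5, 5.59 and 33.8 in the labelled libraries. Replicate 2 of the labelled libraries held 399 counts, against 4247 and 3183 in its partners, while its HNRNPA1 level was the highest of the group. HNRNPA1L2 had log2 fold changes of -0.58 ± 0.14 (edgeR adjusted p = 0.0166) in K562+L against K562, -0.77 ± 0.12 (edgeR adjusted p = 0.000963) in K562/IM against K562, 0.28 (not called) in the labelled libraries against K562/IM and -0.54 (not called) in the labelled libraries against K562. Both calls were lost with all 12 libraries in 1 fit (edgeR adjusted p = 0.403 and 0.231), and that in K562+L also without K562+L replicate 1 (-0.48, edgeR adjusted p = 0.0665). Without labelled replicate 2, HNRNPA1L2 was called in the labelled libraries against K562/IM. The difference of its lycorine effect between the lines as labelled was then called as well.

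HNRNPC, which binds uridine tracts as a tetramer and masks cryptic exons in Alu elements, had 1159 ± 51.9 CPM in K562, 1233 ± 66.3 in K562+L, 812 ± 16.4 in K562/IM and 809 ± 55.0 in the labelled libraries (SD, n = 3). It was called lower in K562/IM and in the labelled libraries, both against K562. HNRNPD (AUF1), which binds AU-rich elements and speeds the decay of such mRNAs, had 558 ± 9.02 CPM in K562, 576 ± 27.4 in K562+L, 398 ± 16.0 in K562/IM and 292 ± 17.4 in the labelled libraries and was called lower in the same comparisons and in the labelled libraries against K562/IM. Its relative HNRNPDL (chromosome 4, 82422564 to 82430408, minus strand) lies on the same strand of chromosome 4 as HNRNPD. Its fold changes in the K562/IM groups were larger, a difference between the genes that was not tested. HNRNPDL stood at 384, 431 and 387 CPM in the K562 libraries, 367, 408 and 396 in K562+L, 239.5, 252 and 244 in K562/IM and 140.1, 141 and 125 in the labelled libraries. K562 and K562+L overlapped, K562/IM lay below both and the labelled libraries lay lowest. HNRNPDL had log2 fold changes of -0.04 (not called) in K562+L against K562, -0.71 ± 0.07 (edgeR adjusted p = 0.000135) in K562/IM against K562, -0.84 (called) in the labelled libraries against K562/IM and -1.59 ± 0.10 (edgeR adjusted p = 2.33e-05) in the labelled libraries against K562.

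The windows from 250 bases before to 50 after the start sites (RefSeq, GRCh38.p14) are printed for 4 genes of unlike behaviour, namely SRSF3, HNRNPAB and HNRNPDL, which were lower in K562/IM and lower again in the labelled libraries, and SRSF5, which was not. Capitals mark, on either strand, the motifs named next, and the TATA box, also searched on both strands, is left in lower case. CCAAT is the CCAAT box, bound by NF-Y. CACGTG is the E-box of MYC and its relatives. CCGGAAG is bound by factors of the ETS family.
SRSF3, chr6:36594112-36594411, plus strand: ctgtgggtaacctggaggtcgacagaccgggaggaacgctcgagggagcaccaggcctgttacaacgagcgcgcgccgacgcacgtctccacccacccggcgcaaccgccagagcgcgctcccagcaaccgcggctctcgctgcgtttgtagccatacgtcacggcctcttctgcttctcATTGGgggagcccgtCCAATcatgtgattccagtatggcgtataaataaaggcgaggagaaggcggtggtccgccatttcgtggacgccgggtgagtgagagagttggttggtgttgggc
HNRNPAB, chr5:178204283-178204582, plus strand: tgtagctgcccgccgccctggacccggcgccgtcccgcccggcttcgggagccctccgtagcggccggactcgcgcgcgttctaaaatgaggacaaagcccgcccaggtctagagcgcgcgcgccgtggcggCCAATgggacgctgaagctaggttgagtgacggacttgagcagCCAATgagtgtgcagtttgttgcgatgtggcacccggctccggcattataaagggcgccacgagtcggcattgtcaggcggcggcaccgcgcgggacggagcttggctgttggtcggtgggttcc
HNRNPDL, chr4:82430176-82430475, minus strand: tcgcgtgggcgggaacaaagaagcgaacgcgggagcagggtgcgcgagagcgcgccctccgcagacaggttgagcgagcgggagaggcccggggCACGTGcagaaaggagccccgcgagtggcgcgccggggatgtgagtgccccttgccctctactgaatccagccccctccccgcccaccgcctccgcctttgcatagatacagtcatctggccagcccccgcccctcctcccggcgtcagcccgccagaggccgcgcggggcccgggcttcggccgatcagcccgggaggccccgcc
SRSF5, chr14:69766892-69767191, plus strand: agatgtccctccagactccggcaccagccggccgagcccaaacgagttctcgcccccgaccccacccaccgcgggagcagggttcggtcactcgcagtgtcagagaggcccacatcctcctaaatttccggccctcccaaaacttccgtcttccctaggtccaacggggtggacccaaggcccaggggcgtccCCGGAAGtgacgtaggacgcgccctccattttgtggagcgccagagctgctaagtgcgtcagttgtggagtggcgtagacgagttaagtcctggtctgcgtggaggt
Windows were found for 34 of the 37 members, 48 windows in all, and not for HNRNPA1, SRSF2 and HNRNPCL3. CCAAT stood in 24 of them, 50% against 34.6% of 35116 windows of all genes. CACGTG stood in 8 (16.7% against 7.26%), CCGGAAG in 5 (10.4% against 10.3%) and TATAAA, the TATA box, in 6 (12.5% against 11.5%). HNRNPDL had a second window, not printed, that overlaps the first and holds CCAAT as well as CACGTG. The median GC content was 64.0% in the members' windows and 58.7% in all. The printed windows are examples, and a link between motif and change in level was not tested. In all, 7 genes were called lower in K562/IM, lower again in the labelled libraries and not called in K562+L. Of these, the windows of SRSF1 and SRSF10 held no searched motif, that of HNRNPD did, and SRSF2 had no window. Of members not called lower in K562/IM, HNRNPUL1 and SRSF8 had the box bound by NF-Y in windows, and SRSF7 did not. A match is a description of letters and not a site, windows of 1 gene can overlap, and the shares were not tested.

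HNRNPF and the HNRNPH proteins bind runs of G through quasi-RNA-recognition motifs. HNRNPF (chromosome 10, 43385617 to 43409166, minus strand) rose in K562+L with little scatter. HNRNPF stood at 397, 423 and 429 CPM in the K562 libraries, 666, 672 and 663 in K562+L, 394, 392 and 407 in K562/IM and 246, 243 and 254 in the labelled libraries. K562+L stood above all other libraries, K562/IM overlapped with K562, and the labelled libraries lay lowest. HNRNPF had log2 fold changes of 0.68 ± 0.07 (edgeR adjusted p = 0.000558) in K562+L against K562, -0.07 (not called) in K562/IM against K562, -0.66 (called) in the labelled libraries against K562/IM and -0.77 (called) in the labelled libraries against K562. HNRNPH1 (chromosome 5, 179614178 to 179634784, minus strand) had a K562 library far from its partners. HNRNPH1 stood at 695, 393 and 614 CPM in the K562 libraries, 652, 637 and 715 in K562+L, 387, 435 and 426 in K562/IM and 595, 584 and 589 in the labelled libraries. K562 replicate 2 held about the level of the K562/IM libraries, and the labelled libraries stood above K562/IM. HNRNPH1 had log2 fold changes of 0.24 (not called) in K562+L against K562, -0.45 (not called) in K562/IM against K562, 0.53 ± 0.07 (edgeR adjusted p = 0.000359) in the labelled libraries against K562/IM and 0.03 (not called) in the labelled libraries against K562. Without K562 replicate 2 the difference between K562/IM and K562 was called.

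HNRNPH3 (chromosome 10, 68331174 to 68343191, plus strand), a shorter relative, and the X-linked HNRNPH2 (chromosome X, 101408295 to 101414133, plus strand) rose with lycorine in K562. HNRNPH3 stood at 335, 309.7 and 327 CPM in the K562 libraries, 399, 421 and 463 in K562+L, 281, 288 and 286 in K562/IM and 211, 218 and 203 in the labelled libraries. K562+L stood above every other library, and the labelled libraries stood lowest. HNRNPH3 had log2 fold changes of 0.40 ± 0.08 (edgeR adjusted p = 0.00857) in K562+L against K562, -0.18 (called) in K562/IM against K562, -0.41 (called) in the labelled libraries against K562/IM and -0.64 (called) in the labelled libraries against K562. Its call in K562/IM against K562 was lost whichever K562/IM library was left out. HNRNPH2 stood at 121, 121 and 118 CPM in the K562 libraries, 158, 166 and 145 in K562+L, 124, 122 and 129 in K562/IM and 108, 110.1 and 105 in the labelled libraries. The differences between groups were small, with K562+L highest. HNRNPH2 had log2 fold changes of 0.38 ± 0.08 (edgeR adjusted p = 0.0104) in K562+L against K562, 0.06 (not called) in K562/IM against K562, -0.19 (called) in the labelled libraries against K562/IM and -0.18 (not called) in the labelled libraries against K562. Its call against K562/IM was lost whichever K562/IM library was left out. Without K562 replicate 2 the calls in K562+L were lost for HNRNPH3 (0.37, edgeR adjusted p = 0.0504) and for HNRNPH2 (0.39, edgeR adjusted p = 0.0512). HNRNPH2 shares 13.5% of its 75-base stretches with the readthrough gene RPL36A-HNRNPH2, which has a row of its own in the table.

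HNRNPK (chromosome 9, 83968083 to 83980616, minus strand) binds runs of C through KH domains. HNRNPK stood at 1029, 1006 and 986 CPM in the K562 libraries, 943, 1000.3 and 1000.1 in K562+L, 739, 764 and 772 in K562/IM and 688, 684 and 695 in the labelled libraries. K562 and K562+L overlapped, and K562/IM and the labelled libraries lay below them without overlap. HNRNPK had log2 fold changes of -0.04 ± 0.07 (edgeR adjusted p = 0.681) in K562+L against K562, -0.41 ± 0.06 (edgeR adjusted p = 0.000643) in K562/IM against K562, -0.12 ± 0.06 (edgeR adjusted p = 0.119) in the labelled libraries against K562/IM and -0.57 ± 0.07 (edgeR adjusted p = 0.000482) in the labelled libraries against K562. The small difference from K562/IM passed with all 12 libraries in 1 fit (-0.14, edgeR adjusted p = 0.0335) and without labelled replicate 3 (-0.12, edgeR adjusted p = 0.0200). HNRNPL, which binds CA repeats, had 529 ± 41.5 CPM in K562, 568 ± 18.2 in K562+L, 433 ± 2.16 in K562/IM and 453 ± 32.9 in the labelled libraries (SD, n = 3) and was called lower in K562/IM. HNRNPLL (chromosome 2, 38561978 to 38603586, minus strand), its relative known for the splicing of CD45 in lymphocytes, behaved otherwise. HNRNPLL stood at 118, 118 and 106 CPM in the K562 libraries, 78.9, 86.0 and 86.2 in K562+L, 103, 101 and 94.3 in K562/IM and 53.9, 51.6 and 52.1 in the labelled libraries. K562+L and the labelled libraries lay below the other 2 groups, without overlap. HNRNPLL had log2 fold changes of -0.45 ± 0.09 (edgeR adjusted p = 0.00660) in K562+L against K562, -0.20 (not called) in K562/IM against K562, -0.90 (called) in the labelled libraries against K562/IM and -1.14 (called) in the labelled libraries against K562.

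HNRNPM (chromosome 19, 8444767 to 8489114, plus strand) binds GU-rich motifs. HNRNPM stood at 595, 657 and 672 CPM in the K562 libraries, 772, 785 and 785 in K562+L, 421, 412 and 436 in K562/IM and 308, 306 and 271 in the labelled libraries. K562+L stood highest, K562/IM below K562 and the labelled libraries lowest, with no overlap. HNRNPM had log2 fold changes of 0.28 (called) in K562+L against K562, -0.60 ± 0.07 (edgeR adjusted p = 0.000277) in K562/IM against K562, -0.50 (called) in the labelled libraries against K562/IM and -1.14 (called) in the labelled libraries against K562. Its call in K562+L was lost whichever K562+L library was left out. HNRNPU (chromosome 1, 244840638 to 244864560, minus strand), or scaffold attachment factor A, binds chromatin as well as RNA. HNRNPU stood at 1452, 1449.8 and 1363 CPM in the K562 libraries, 1914, 1952 and 2007 in K562+L, 1109, 1094 and 1077 in K562/IM and 639, 627 and 891 in the labelled libraries. K562+L stood above and K562/IM below K562, and labelled replicate 3 was well above its 2 partners. HNRNPU had log2 fold changes of 0.46 ± 0.06 (edgeR adjusted p = 0.00183) in K562+L against K562, -0.38 ± 0.06 (edgeR adjusted p = 0.000953) in K562/IM against K562, -0.58 ± 0.14 (edgeR adjusted p = 0.00769) in the labelled libraries against K562/IM and -1.01 ± 0.14 (edgeR adjusted p = 0.000821) in the labelled libraries against K562. HNRNPR (chromosome 1, 23303771 to 23344336, minus strand), a relative of SYNCRIP, had the largest log2 fold change of the members in K562+L and scattered within groups. HNRNPR stood at 226, 201 and 185 CPM in the K562 libraries, 431, 427 and 275 in K562+L, 296, 179 and 299 in K562/IM and 101, 202 and 131 in the labelled libraries. K562+L replicate 3 and K562/IM replicate 2 lay far below their partners, and labelled replicate 2 lay above its own and above K562/IM replicate 2. HNRNPR had log2 fold changes of 0.89 ± 0.17 (edgeR adjusted p = 0.00668) in K562+L against K562, 0.34 (not called) in K562/IM against K562, -0.81 (called) in the labelled libraries against K562/IM and -0.52 (not called) in the labelled libraries against K562. Against K562/IM the call was lost in 4 of 6 fits that left out 1 library, without K562/IM replicates 1 or 3 and without labelled replicates 1 or 3.

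HNRNPUL1 had 342 ± 3.05 CPM in K562, 371 ± 8.53 in K562+L, 372 ± 7.20 in K562/IM and 294 ± 11.7 in the labelled libraries (SD, n = 3), and HNRNPUL2 had 422 ± 12.8 CPM in K562, 464 ± 26.3 in K562+L, 454 ± 0.981 in K562/IM and 348 ± 7.20 in the labelled libraries. Both are relatives of HNRNPU with a role in the repair of DNA ends, and both were called lower in the labelled libraries against K562/IM and against K562. The call of HNRNPUL1 against K562 was lost whichever K562 library was left out. HNRNPUL2 shares 45.0% of its 75-base stretches with the readthrough gene HNRNPUL2-BSCL2, which the table does not list. HNRNPL shares 23.5% of its stretches with other genes, 17.2% with AC008982.1 on the same strand. For HNRNPA3 and HNRNPH1 the shares with other genes, pseudogenes included, are 13.5% and 8.51%. The table lists none of the genes that share stretches with these 3 members, and their counts carry this uncertainty. Exons of 7 members overlap a gene of the opposite strand that is in the table, HNRNPA2B1 with CBX3, HNRNPAB with PHYKPL, HNRNPH3 with RUFY2, HNRNPU with COX20, HNRNPUL1 with TGFB1, SRSF2 with MFSD11 and SRSF9 with GATC. Whether the counting used strand is not given in the sources used here, so that reads of such a pair may be mixed.

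Summed over the family, the SR transcripts made up less of the RNA in K562/IM and less again in the labelled libraries. The 12 SRSF genes together held 3804 to 3856 CPM in K562, 3597 to 3793 in K562+L, 2922 to 3114 in K562/IM and 2222 to 2306 in the labelled libraries. The HNRNP genes without HNRNPA1 held 12578 to 12945, 13130.2 to 13825, 9908 to 10025 and 7305 to 7399 CPM in the same order, so that only K562+L reached above K562. HNRNPA1 alone took 19.5 to 20.4% of the HNRNP counts in K562, 14.8 to 15.9% in K562+L, 16.8 to 17.0% in K562/IM and 30.6 to 32.8% in the labelled libraries. The sums are descriptions and were not tested. Ratios between relatives were taken per kilobase. HNRNPA1 over HNRNPA2B1 was 2.68 ± 0.0344 in K562, 2.58 ± 0.198 in K562+L, 2.43 ± 0.0180 in K562/IM and 7.87 ± 0.112 in the labelled libraries (SD, n = 3). SRSF2 over SRSF8 was 12.4 ± 0.260 in K562, 10.2 ± 0.498 in K562+L, 8.02 ± 0.207 in K562/IM and 3.90 ± 0.145 in the labelled libraries, and SRSF1 over SRSF9 was 2.44 ± 0.309 in K562, 2.93 ± 0.264 in K562+L, 2.40 ± 0.143 in K562/IM and 1.06 ± 0.158 in the labelled libraries. The first was lower in each group than in K562, and the second lay below the K562 libraries, without overlap, in the labelled libraries only. SRSF3 over SRSF7 was 2.03 ± 0.175 in K562, 2.92 ± 0.168 in K562+L, 1.53 ± 0.0611 in K562/IM and 2.25 ± 0.175 in the labelled libraries, and SRSF5 over SRSF6 was 2.70 ± 0.232 in K562, 1.98 ± 0.0483 in K562+L, 3.41 ± 0.185 in K562/IM and 3.95 ± 0.341 in the labelled libraries. Both means were higher in the labelled libraries than in K562, and for SRSF3 over SRSF7 the libraries of these 2 groups overlapped. HNRNPD over HNRNPDL was 2.59 ± 0.176 in K562, 2.74 ± 0.0268 in K562+L, 3.01 ± 0.0711 in K562/IM and 4.02 ± 0.471 in the labelled libraries, and HNRNPL over HNRNPLL was 6.31 ± 0.887 in K562, 9.20 ± 0.582 in K562+L, 5.91 ± 0.268 in K562/IM and 11.7 ± 0.761 in the labelled libraries, both highest in the labelled libraries. HNRNPH1 over HNRNPF was 1.68 ± 0.508 in K562, 1.23 ± 0.0835 in K562+L, 1.28 ± 0.0787 in K562/IM and 2.92 ± 0.0660 in the labelled libraries, the wide SD in K562 coming with the low HNRNPH1 of replicate 2, and HNRNPU over HNRNPUL1 was 2.82 ± 0.0782 in K562, 3.58 ± 0.142 in K562+L, 1.99 ± 0.0403 in K562/IM and 1.65 ± 0.274 in the labelled libraries.

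**Figure D4:**
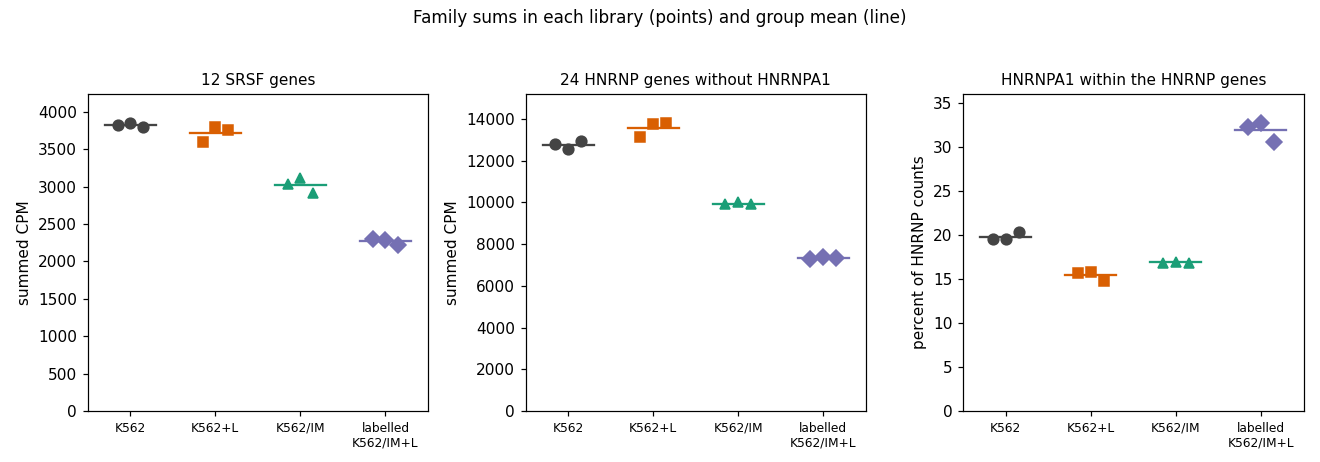
Summed CPM of the 12 SRSF genes (left) and of the 24 HNRNP genes other than HNRNPA1 (middle), and HNRNPA1 as percent of HNRNP counts (right), in each library (points) with the group mean (line). The 2 sums are lowest in the labelled libraries, while the share of HNRNPA1 there, 30.6 to 32.8%, lies above every other library.

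The effect of lycorine on many members differed between the lines as labelled, and most of these members had a more negative effect in K562/IM. In the interaction term of a fit over all 12 libraries (edgeR, adjusted p under 0.05), 20 of the 32 members had a lower effect in K562/IM than in K562, 62.5% against 31.7% of the 13995 genes tested, and 3 a higher one, 9.38% against 29.9%. With a difference over 1 on the log2 scale as well, 5 were lower and 1 higher, beside 16.3% and 17.5% of all genes. The median difference was -0.48 over the members and -0.020 over all genes, and upper-quartile factors moved that of all genes by 0.13. HNRNPR differed by -1.73 ± 0.38 (edgeR adjusted p = 0.00180), with log2 fold changes of 0.89 in K562 and -0.81 in K562/IM. For HNRNPF the difference was -1.36 ± 0.08 (edgeR adjusted p = 5.68e-08), from 0.68 and -0.66. HNRNPU differed by -1.07 ± 0.16 (edgeR adjusted p = 0.000112), from 0.46 and -0.58. These 3 hnRNPs were thus called in opposite directions in the lines. Among SR genes SRSF10 differed by -1.21 ± 0.24 (edgeR adjusted p = 0.00101) and SRSF1 by -1.02 ± 0.09 (edgeR adjusted p = 1.71e-06), where the effect in K562 was not called. In the other direction HNRNPA1 differed by 1.12 ± 0.08 (edgeR adjusted p = 5.43e-07), from -0.35 in K562 and 0.79 in K562/IM, SRSF5 by 0.55 ± 0.09 (edgeR adjusted p = 0.000362) and SRSF9 by 0.44 ± 0.14 (edgeR adjusted p = 0.0135). SRSF2 differed by -0.76 ± 0.09 (edgeR adjusted p = 2.02e-05), SRSF3 by -0.89 ± 0.11 (edgeR adjusted p = 3.81e-05), and HNRNPK, by -0.10 ± 0.07 (edgeR adjusted p = 0.251), did not pass.

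**Figure D5:**
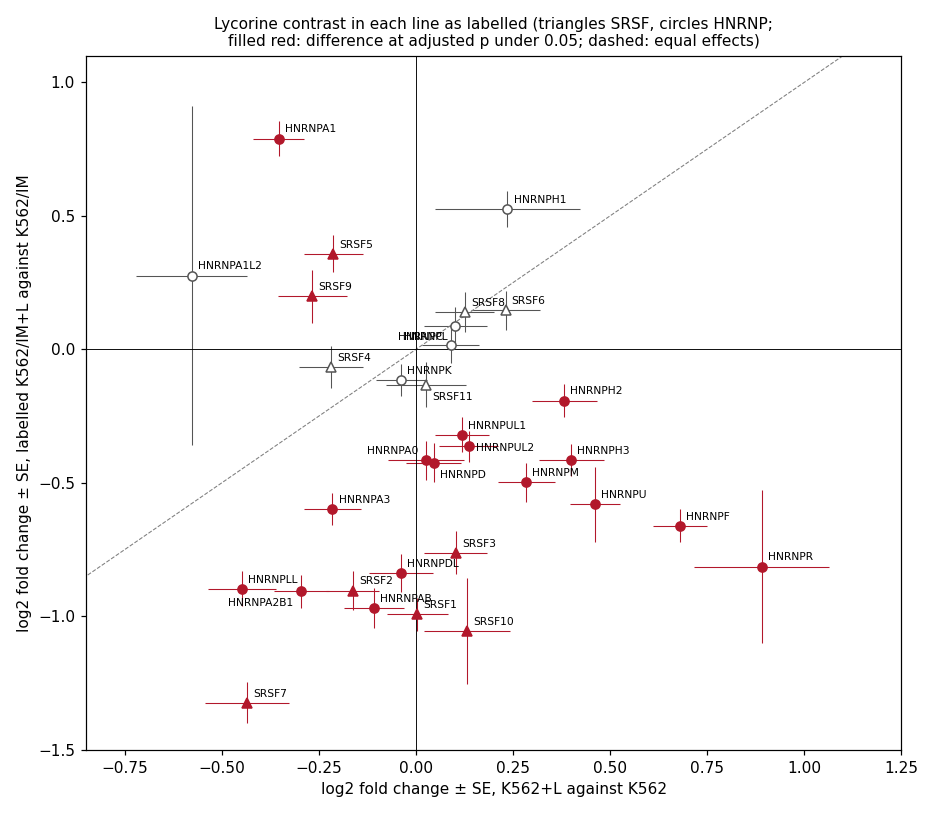
Log2 fold change with lycorine in K562 (horizontal) and in K562/IM as labelled (vertical), with standard errors, for the 32 tested members. Points filled in red differed between the lines (edgeR interaction, adjusted p under 0.05). HNRNPR, HNRNPF and HNRNPU lie at lower right, HNRNPA1 and SRSF5 at upper left, and SRSF1 and SRSF10 near 0 on the horizontal axis.

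Genes that act on or beside these families were taken as 5 lists, and their counts are descriptions, to be read against the shares of all genes. These were 18.2% higher and 19.0% lower in K562+L and 30.1% and 27.1% in K562/IM. In the labelled libraries they were 33.2% and 33.6% against K562/IM and 28.2% and 27.8% against K562. Genes named from a list are examples and do not stand for the list. All counts and values are from edgeR at an adjusted p under 0.05. Of 13 genes for the kinases, phosphatases and import receptor of SR proteins, 4 were higher and 0 lower in K562+L (0 lower at an unadjusted p, 0 with DESeq2), 4 higher and 4 lower in K562/IM, and 5 higher and 5 lower in the labelled libraries against K562/IM. The nuclear kinases CLK3 and CLK4 rose in the labelled libraries against K562/IM, with log2 fold changes of 0.85 ± 0.10 (edgeR adjusted p = 0.000181) and 0.60 ± 0.07 (edgeR adjusted p = 0.000279), as did the phosphatase subunit PPP1CA, with 0.82 ± 0.11 (edgeR adjusted p = 0.000334). CLK2, of the same kinase family and named with its value known, fell there, with -0.46 ± 0.08 (edgeR adjusted p = 0.00164), and SRPK1, the cytoplasmic kinase of RS domains, fell by 0.72 ± 0.08 (edgeR adjusted p = 0.000150). TNPO3, the import receptor, had -0.27 ± 0.08 (edgeR adjusted p = 0.0172) in K562/IM and -0.51 ± 0.09 (edgeR adjusted p = 0.00249) in the labelled libraries, both against K562. Against K562, 3 of the list were higher and 6 lower in the labelled libraries. The median log2 fold changes of this list were 0.17, 0.05, -0.07 and -0.04 in the 4 comparisons as ordered above. The medians of all genes, given above, were between -0.0069 and 0.042. Of 16 other proteins with RS domains, 5 were higher and 1 lower in K562+L, 2 and 4 in K562/IM, 2 and 9 in the labelled libraries against K562/IM and 0 and 8 against K562 (1 higher at an unadjusted p, 1 with DESeq2). Its medians were 0.07, -0.03, -0.34 and -0.32. SON and SRRM2, large proteins of nuclear speckles, rose in K562+L, with 0.68 ± 0.14 (edgeR adjusted p = 0.00853) and 0.57 ± 0.12 (edgeR adjusted p = 0.00916). TRA2B, an SR-like activator, fell in K562/IM, with -0.38 ± 0.07 (edgeR adjusted p = 0.00208), and in the labelled libraries against K562/IM, with -0.79 ± 0.17 (edgeR adjusted p = 0.00396).

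Of 31 tested hnRNPs and splice-site regulators with other names, 8 were higher and 3 lower in K562+L, 4 and 13 in K562/IM, 6 and 13 in the labelled libraries against K562/IM and 3 and 18 against K562. Its medians were 0.04, -0.15, -0.16 and -0.36. Of the muscleblind genes, MBNL2 and MBNL3 moved apart from each other. MBNL1, the most abundant of them and named with its values known, had means of 232 CPM in K562, 229 in K562/IM and 109 in the labelled libraries. MBNL3 fell in K562/IM, with -2.34 ± 0.25 (edgeR adjusted p = 0.000166), where MBNL2 rose, with 1.39 ± 0.11 (edgeR adjusted p = 4.23e-05), and both had the other sign in the labelled libraries against K562/IM, with 2.34 ± 0.26 (edgeR adjusted p = 0.000148) and -1.26 ± 0.11 (edgeR adjusted p = 5.38e-05). The K562/IM libraries enter both of these comparisons. SYNCRIP, the relative of HNRNPR, rose in K562+L, with 0.47 ± 0.08 (edgeR adjusted p = 0.00442), and fell in the labelled libraries against K562/IM, with -1.09 ± 0.13 (edgeR adjusted p = 0.000200). RBM3, a cold-inducible RNA-binding protein, fell in K562+L (-0.54 ± 0.08) and in K562/IM (-1.26 ± 0.07). Its mean was higher in the labelled libraries, with 220 CPM, than in K562/IM, with 139 CPM, and was 333 CPM in K562.

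Of the 50 core snRNP and spliceosome subunits, 15 were higher and 9 lower in K562+L, 0 higher (0 at an unadjusted p, 0 with DESeq2) and 28 lower in K562/IM, 8 and 25 in the labelled libraries against K562/IM and 1 and 35 against K562. Its medians were 0.16, -0.33, -0.28 and -0.63. SNRPF, a subunit of the Sm ring, fell in K562+L, with -1.62 ± 0.11 (edgeR adjusted p = 0.000115), while CDC5L and PRPF8 of the active spliceosome rose, with 0.80 ± 0.09 (edgeR adjusted p = 0.000703) and 0.63 ± 0.11 (edgeR adjusted p = 0.00444). Sm genes led the lower calls of K562/IM, with -1.09 ± 0.18 (edgeR adjusted p = 0.00147) for SNRPG, -0.88 ± 0.22 (edgeR adjusted p = 0.00970) for SNRPD2 and -0.81 ± 0.09 (edgeR adjusted p = 0.000181) for SNRPE. In the labelled libraries against K562/IM the helicases DDX46 and AQR fell most, with -1.31 ± 0.09 (edgeR adjusted p = 1.21e-05) and -0.95 ± 0.08 (edgeR adjusted p = 5.17e-05). Of 14 factors of nonsense-mediated decay, 11 were higher and 1 lower in K562+L, 1 and 3 in K562/IM, 1 and 5 in the labelled libraries against K562/IM and 1 and 7 against K562. Its medians were 0.46, 0.07, -0.16 and -0.32. SMG9, SMG1 and UPF2 rose in K562+L, with 1.09 ± 0.10 (edgeR adjusted p = 0.000286), 0.96 ± 0.24 (edgeR adjusted p = 0.0181) and 0.85 ± 0.13 (edgeR adjusted p = 0.00285). UPF3A was lower there, with -0.25 ± 0.08 (edgeR adjusted p = 0.0392), and higher in the labelled libraries against K562/IM, with 0.57 ± 0.07 (edgeR adjusted p = 0.000360).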

How the data were processed

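Total RNA taken up in TRIzol was made into libraries with a poly(A) enrichment kit, per the labels. The authors deposited 1 table of whole-number counts per gene for the 12 libraries, with gene symbols. The submitters' processing notes name FastQC, STAR, StringTie, DESeq2 and the hg38 build without their roles or versions, and the counting program, its annotation and its use of strand are not given in the sources used here. Of 23289 values from 1 to 25, 67.9% were a multiple of 4 or 1 above one, for which the sources used here give no reason. The members and the lists of related genes were chosen with earlier results of these data known.

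The counts were used as deposited. Each comparison was fitted on its 6 libraries, and the interaction of line and lycorine on all 12, with the quasi-likelihood test of edgeR 4.0.16 in R 4.3.3, TMM scaling, a minimum count of 10 (filterByExpr) and Benjamini-Hochberg adjustment over all genes tested, two-sided, with calls at an adjusted p under 0.05. A second rule asked also for an absolute log2 fold change over 1. Alternatives were DESeq2 1.42.0, other scalings and filters, all libraries in 1 fit, the replicate number as a block, counts divided by 4, and each library left out in turn. In each comparison full statistics were given for up to 5 called members in each direction with the largest fold change, and for SRSF1, SRSF2, SRSF3, HNRNPA1, HNRNPK and HNRNPU, and at most 3 called genes of each list and direction were named. Levels per kilobase divide CPM by the median length of the protein-coding transcripts of a gene in GENCODE 29. Shares of common 75-base stretches were computed from the same transcripts. The fits were also run on simulated counts with the same spread set for every gene. The real libraries do not share that setting, so that this run does not show how accurate the fits are here. Exact permutation of 3 against 3 libraries cannot give a p below 0.1, so none was used.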

Additional observations from a re-analysis of the deposited data

Results flagged for a closer look

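These 23 members are listed because the effect of lycorine differed between K562 and K562/IM as labelled, by the edgeR interaction term at an adjusted p under 0.05. Such a call was common over all genes, with 29.9% higher and 31.7% lower of the 13995 tested. Of the members 9.38% were higher and 62.5% lower, so that they differ from all genes in direction more than in being called. Each value is the effect in K562/IM minus that in K562 on the log2 scale, followed in parentheses by the effect in K562 and in K562/IM. The effects had opposite signs in 16 of them, whether or not each effect was called by itself, and the share of all genes with opposite signs was not taken. Among hnRNP genes with opposite signs and a lower effect in K562/IM, differences were HNRNPR by -1.73 (0.89 and -0.81), HNRNPF by -1.36 (0.68 and -0.66), HNRNPU by -1.07 (0.46 and -0.58), HNRNPH3 by -0.84 (0.40 and -0.41), HNRNPM by -0.80 (0.28 and -0.50), HNRNPH2 by -0.60 (0.38 and -0.19), HNRNPUL2 by -0.52 (0.14 and -0.36), HNRNPD by -0.49 (0.05 and -0.42), HNRNPA0 by -0.46 (0.03 and -0.41) and HNRNPUL1 by -0.46 (0.12 and -0.32). The SR genes of this kind differed likewise, SRSF10 by -1.21 (0.13 and -1.05), SRSF1 by -1.02 (0.0037 and -0.99) and SRSF3 by -0.89 (0.10 and -0.76). A higher effect in K562/IM was found for SRSF9 by 0.44 (-0.27 and 0.20), SRSF5 by 0.55 (-0.21 and 0.36) and HNRNPA1 by 1.12 (-0.35 and 0.79). In the remaining members both effects were negative, with differences of SRSF7 by -0.91 (-0.43 and -1.32), HNRNPAB by -0.88 (-0.11 and -0.97), HNRNPDL by -0.82 (-0.04 and -0.84), SRSF2 by -0.76 (-0.16 and -0.90), HNRNPA2B1 by -0.63 (-0.30 and -0.91), HNRNPLL by -0.47 (-0.45 and -0.90) and HNRNPA3 by -0.41 (-0.21 and -0.60). The adjusted p-values of the 23 interaction terms (edgeR) lay between 5.68e-08 and 0.0135. The lineage markers stood at 17264 to 25540.5 CPM in sum in the K562/IM libraries labelled with lycorine and at 1638 to 1784 CPM in K562/IM, and the part of this gap in the interaction was not tested.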

How the results depend on the processing

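Among the counts and the members given full statistics in a comparison, no result reversed. No member called in the interaction was lost under another test, scaling, filter, block or set of libraries. Over all alternatives, 281 counts and 822 values of members given full statistics kept their call or size. Of the rest, 29 counts moved by over 1.5 times, and 13 calls of such members were lost and 4 gained. Other members, such as HNRNPA3 in K562+L, are not in this tally, and some of their calls were lost in many fits. With a log2 fold change over 1 as well, members called higher and lower were 0 and 0 in K562+L, 0 lower in K562/IM, 0 and 2 in the labelled libraries against K562/IM, 0 and 12 against K562, and 1 and 5 in the interaction. Upper-quartile factors gave 1 higher member in K562/IM (HNRNPUL1) and 3 in the labelled libraries against K562, where all 12 libraries in 1 fit gave 2.

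Replicate numbers were shared between groups, but correlations of same-numbered libraries lay between -0.227 and 0.150 and not all passed 0.1, so that the numbers were not taken as pairs. With the replicate number as a block, all genes called in K562+L were 1488 higher and 1638 lower in place of 2359 and 2462, HNRNPH2 there had an edgeR adjusted p of 0.0530, and 0 members were higher in the labelled libraries against K562 (SRSF5, edgeR adjusted p = 0.0941).

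Leaving out 1 library gave 3 to 7 higher and 2 to 6 lower members in K562+L (all genes 1327 to 2891 and 1544 to 2932), 0 to 1 and 17 to 22 in K562/IM (3327 to 4510 and 2964 to 4324), 3 to 6 and 18 to 21 in the labelled libraries against K562/IM (4052 to 4959 and 4049 to 5222), 0 to 1 and 18 to 20 against K562 (3074 to 3742 and 3051 to 3699), and 3 to 4 and 20 to 20 in the interaction (3783 to 4321 and 4106 to 4643). Over all genes, fewer were called in K562+L by over 1.5 times without K562 replicate 2, K562+L replicate 1 or K562+L replicate 3. The cause was not tested. SRSF12 and the HNRNPC-like genes had too few counts to be compared.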
